A study of Homo sapiens with 15 samples.

Results

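The arrays at both ends of an epidermal growth factor (EGF) time course in H1975 cells were compared, those taken 0.5 h and those taken 48 h after the growth factor was added. H1975 is an established human line of non-small cell lung cancer with a mutated EGF receptor gene. The members were chosen by the time in the array titles, which gave 5 of the 15 arrays of the series, 2 at 0.5 h (replicate numbers 1 and 3) and 3 at 48 h (numbers 1, 2 and 3). The cells of all 5 arrays were starved of serum overnight and then kept in serum-free medium with 50 ng/ml EGF. Unstimulated cells were not analysed here, so time after EGF and time without serum cannot be told apart. The other 10 arrays came from 8 times between these ends and are used below to place a level in time.

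Levels are SCAN scores, which put each array on its own log-like scale corrected for the base composition of its probes. A difference is the mean at 48 h minus the mean at 0.5 h, in SCAN units and with its standard error (SE), and is no fold change. A gene was called when the Benjamini-Hochberg adjusted p of limma, over all 14675 genes measured under a name, was under 0.05. Nothing in the labels says that replicates came from separate cultures, so the p-values measure a spread between arrays that may be technical. That spread is moderated towards the one shared by all genes and also uses the replicates at 24 h.

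EGF binds its receptor tyrosine kinase and starts the RAS, RAF and MAP kinase cascade, which switches on immediate-early transcription factors within minutes, and then feedback genes that damp the signal. In cells that enter the cycle, E2F factors raise the genes of DNA replication, and the MuvB complexes with B-MYB and FOXM1 raise the genes of mitosis. When the growth signal fades, pocket proteins such as RBL2 join MuvB in the repressive DREAM complex and FOXO factors switch on genes of the resting state. In lung epithelium, alveolar type 2 cells make surfactant proteins and the protease napsin A, and NKX2-1 is the transcription factor that marks this lineage.

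The 5 arrays were alike in scale, with a median gene score between 0.417 and 0.428. The correlation over all genes, whose scores are not independent of each other, was 0.997 between arrays of the same time and 0.981 to 0.982 between arrays of different times. The median standard deviation (SD) between replicates was 0.0253 at 0.5 h (n = 2) and 0.0314 at 48 h (n = 3). Epithelial markers bore out the label, with KRT18 at a mean of 2.85 and 2.90, ESRP1 at 2.36 and 2.34 and EPCAM at 2.14 and 2.22 at 0.5 h and 48 h. Of the 8 epithelial markers 4 were called higher and 1 lower, or 2 and 1 without the 0.5 h array of replicate 1 or the 48 h array of replicate 2 or 3. Of the 7 blood cell markers measured, 6 had means between -0.13 and 0.14 at 0.5 h, near the lower quartile of all genes (-0.0168), and CSF1R stood higher at 1.03 and 1.16. The 5 fibroblast and endothelial markers (DCN, LUM, VWF, CLDN5 and EMCN) had means from -0.16 to 0.06 at both ends, and none was called.

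Between the ends, 4199 of 14675 genes (28.6%) were called, 2273 higher (15.5%) and 1926 lower at 48 h (13.1%). The median difference over all genes was 0.0013, and the median size of a called difference was 0.149. Large differences were mostly decreases, with 155 called genes lower by over 0.5 and 38 higher by over 0.5. Of those 155, out of all 14675 genes, 88 belong to the lists of cell cycle and DNA repair genes described below. These lists have 18, 14, 20, 31, 38, 16, 16 and 15 measured members. They were drawn up with earlier results of these data known, so the count of 88 is no independent result. The scores of the groups did not overlap for 50.9% of all genes, so that a lack of overlap is common here.

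The largest decrease was that of CCN2 (connective tissue growth factor), a secreted matrix protein whose gene is a classic target of YAP and of serum response factor. Its scores were 2.12 and 2.10 at 0.5 h and 0.58, 0.44 and 0.43 at 48 h, so that each late array lay far below both early arrays. The difference was -1.63 ± 0.042 (SE, adjusted p = 2.8e-14). GINS2, a subunit of the replicative helicase, followed with 2.31 and 2.36 against 1.33, 1.30 and 1.32, a difference of -1.02 ± 0.030 (adjusted p = 9.5e-14). MKI67, which encodes the proliferation antigen Ki-67, scored 2.49 and 2.50 at 0.5 h and 1.50, 1.53 and 1.51 at 48 h, and fell by 0.98. The other 7 of the 10 largest decreases, between 0.92 and 0.97 in size, were all in genes of division. They were SHCBP1, SPAG5, PLK1, TICRR, DTL, CKAP2L and MYBL2, which act in cytokinesis, the spindle, mitotic entry, origin firing, licensing control, the spindle and cell cycle transcription.

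The largest increase was that of NAPSA, which encodes napsin A, an aspartic protease that processes pro-surfactant protein B. Its scores were 0.59 and 0.73 at 0.5 h and 1.97, 1.91 and 1.81 at 48 h, a difference of 1.24 ± 0.052 (adjusted p = 2.6e-12). CXCL17, a chemokine of mucosal surfaces, stood at 0.70 and 0.68 and then at 1.80, 1.66 and 1.72, and rose by 1.04. PAEP (glycodelin), a secreted lipocalin of glandular epithelium, stood at 1.52 and 1.54 and then at 2.49, 2.51 and 2.48. CEACAM6, a cell surface adhesion protein of epithelia, had the most uneven early scores of these genes, 0.15 and 0.36, and late scores of 1.24, 1.12 and 1.19. The other 6 of the 10 largest increases were ENTPD3 (0.89), TXNIP (0.85), TMEM45B (0.83), ARHGEF38 (0.71), IFI44L (0.69) and SAMD9L (0.67). ENTPD3 is an ecto-ATPase, TXNIP the thioredoxin-binding arrestin that limits glucose uptake, and the last pair are interferon-induced.

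**Figure D1:**
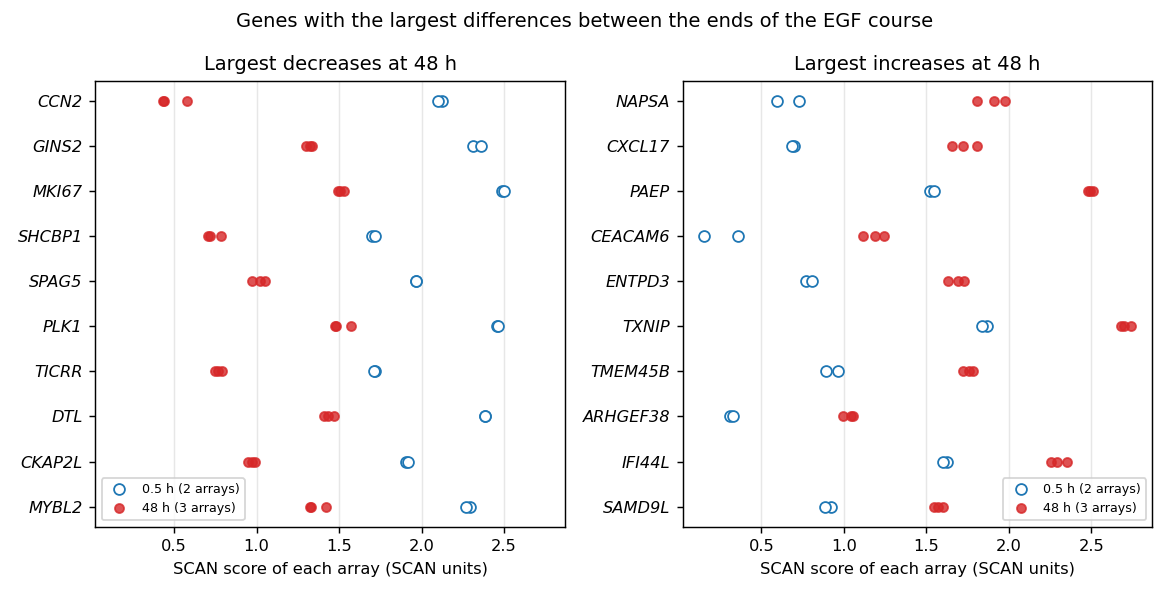
SCAN score (horizontal axis, SCAN units) of each array for the 10 genes with the largest decreases (left) and the 10 with the largest increases (right), open circles for the 2 arrays at 0.5 h and filled circles for the 3 at 48 h. The groups stand apart for all 20 genes, as they do for 50.9% of all genes, from CCN2 with a difference of -1.63 to NAPSA with 1.24.

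Taken by gene list, the called members were unevenly spread. The lists held 924 measured genes, of which 529 were called, 190 higher and 339 lower. Outside the lists, 2083 of 13751 genes were called higher and 1587 lower. Over all genes the shares were 15.5% higher and 13.1% lower, and the count of each list and family below is to be read beside these.

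**Figure D2:**
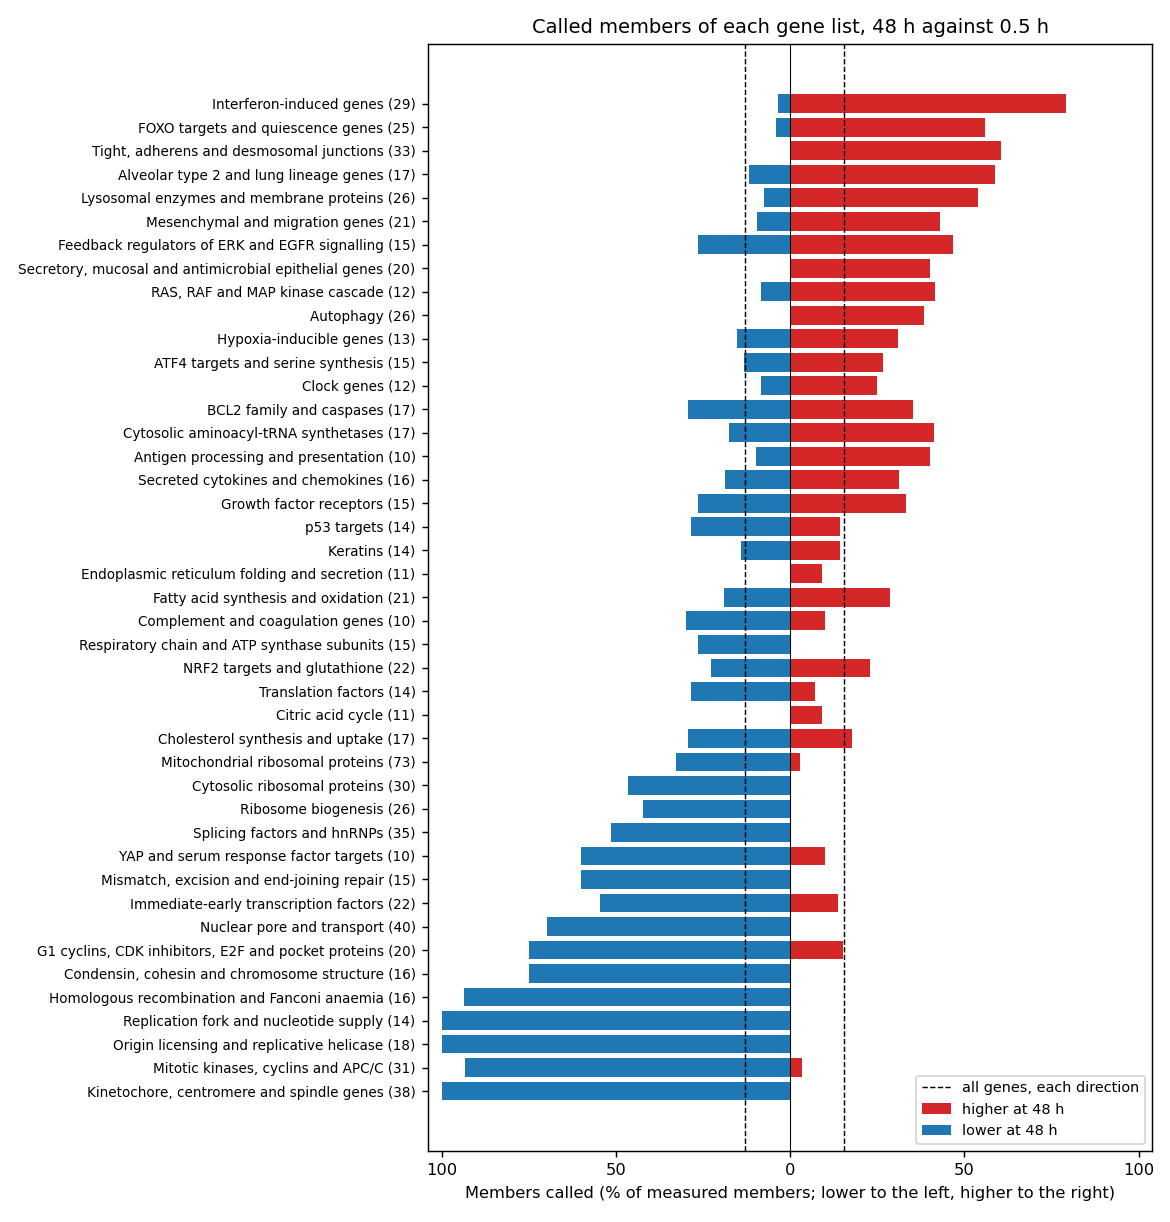
Share of the measured members of each list (number in brackets, lists with 10 or more) that was called higher (right) or lower (left) at 48 h, in % on the horizontal axis, ordered by the median difference. The dashed lines mark the shares over all genes, 15.5% higher and 13.1% lower, and the licensing, fork and kinetochore lists reach 100% on the lower side.

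The immediate-early transcription factors, which the MAP kinase cascade induces without new protein synthesis, were mostly lower at 48 h. Of 22 measured members, 12 were lower, 3 higher and 7 not called, with a median difference of -0.10. EGR1, a zinc finger factor, scored 2.62 and 2.64 at 0.5 h and 1.98, 2.06 and 2.05 at 48 h, a difference of -0.60 ± 0.033 (adjusted p = 9.3e-11). FOS, which pairs with JUN in the AP-1 factor, scored 0.95 and 0.88 and then 0.41, 0.38 and 0.41. JUN fell by 0.41, KLF6 by 0.37, FOSL1 by 0.36, FOSB by 0.33 and MYC by 0.32. IER5 and KLF10 ran the other way. IER5, a regulator of heat shock factor, rose from 0.91 and 0.90 to 1.14, 1.21 and 1.14, and KLF10, a TGF-beta-inducible repressor, rose by 0.20. Neither group of arrays overlapped the other for any of these 9 genes, which is also true of 50.9% of all genes. They were named mainly by the size of their differences, so this separation adds little.

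The levels at the ends do not show the low points between them. The score of EGR1 was 2.59 at 1 h, 1.69 at 2 h and 1.26 at 8 h, and it stood at 1.76 at 24 h and 2.03 at 48 h. FOS was lowest at 2 h, at 0.09, and MYC was highest at 1 h, at 1.82. CCN2 was 2.19 at 1 h, 1.78 at 2 h and 0.40 at 4 h, and stayed between 0.40 and 0.54 at all times from 4 h to 48 h. These levels at 1 to 18 h are single arrays and were not tested.

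Serum response factor acts on immediate-early genes through the CArG box, and the promoter of EGR1 is shown because it holds a tight pair of these boxes. The stretch printed lies at chr5:138465359-138465420 (GRCh38.p14, + strand, RefSeq), and the capitals mark the boxes, which begin 105 and 83 bases before the start of the gene.
EGR1: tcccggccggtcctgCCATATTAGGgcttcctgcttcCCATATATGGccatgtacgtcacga
A CArG box was found on either strand in 1.22% of the 10707 measured genes whose promoter (250 bases before to 50 after the start) could be read. The share within the immediate-early list is not given here, so EGR1 stands as an example only.

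The feedback genes of ERK and EGFR signalling went in both directions. Of 15 measured members, 7 were higher, 4 lower and 4 not called. The lower ones included the MAP kinase phosphatases DUSP1 (-0.62) and DUSP4 (-0.26), and DUSP1 scored 1.62 and 1.69 and then 1.07, 1.03 and 1.02. DUSP5, which acts on nuclear ERK, was called at -0.22, but not without the 0.5 h array of replicate 3 (-0.15, adjusted p = 0.063). The higher ones included the inhibitors SPRY2 (0.44), SPRY4 (0.22) and ERRFI1 (0.19), which act at or just below the receptor, and the phosphatases DUSP6 (0.19) and DUSP8 (0.18). SPRY2, a Sprouty protein that blocks RAS activation, scored 1.26 and 1.33 at 0.5 h and 1.75, 1.75 and 1.72 at 48 h. At 24 h it stood at 1.42.

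Among growth factor receptors, 5 of 15 were higher and 4 lower. KDR, the VEGF receptor, showed the largest change, from 0.46 and 0.39 to 1.08, 1.07 and 1.03, a difference of 0.63 ± 0.033 (adjusted p = 4.9e-11). ERBB3, the partner of EGFR that signals through PI3 kinase, rose by 0.42, and EGFR itself rose by 0.17, from 2.41 and 2.45 to 2.60, 2.59 and 2.60. MET, the receptor of hepatocyte growth factor, fell by 0.27, EPHA2, an ephrin receptor, by 0.25 and AXL, the GAS6 receptor, by 0.20. In the cascade below the receptors, 5 of 12 members were higher and 1 lower, and the docking protein GAB1 moved most (0.27). Of 7 EGF family ligands, NRG1 (-0.16) and EREG (-0.14) were lower with every array left out in turn.

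Targets of YAP and serum response factor other than CCN2 moved less. Of 10 members, 6 were lower and 1 higher, and 3 were lower with none higher without the 0.5 h array of replicate 1. TPM1, a tropomyosin of actin filaments, fell by 0.36, and its other probe set gave -0.15. THBS1, the matrix protein thrombospondin, fell by 0.21. Secreted cytokines were divided, with 5 of 16 higher (31.25%) and 3 lower (18.75%), against 15.5% and 13.1% of all genes. VEGFA, the vascular growth factor, rose from 1.41 and 1.37 to 1.84, 1.85 and 1.87, while the chemokine CXCL2 fell by 0.26 and the vasoconstrictor peptide EDN1 by 0.19. The largest decrease of this list was that of CXCL8 (interleukin-8), a chemokine that attracts neutrophils, with -0.31, or -0.20 without the 0.5 h array of replicate 1.

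All 18 measured members of the origin licensing and helicase list were lower at 48 h, with a median difference of -0.61, and so were all 14 members of the replication fork and nucleotide list, with a median of -0.56. Over all genes, 13.1% were lower. CDC6, which loads the MCM helicase onto origins, scored 2.19 and 2.17 at 0.5 h and 1.32, 1.26 and 1.21 at 48 h, a difference of -0.92 ± 0.038 (adjusted p = 2.6e-12). DTL, which directs the destruction of the licensing factor CDT1, scored 2.39 and 2.38 and then 1.41, 1.44 and 1.47. CDC45, the helicase cofactor, fell by 0.80, and MCM10, which joins helicase and polymerase, by 0.77. The 6 subunits of the MCM2-7 ring fell by similar amounts, MCM3 by 0.75, MCM5 by 0.73, MCM6 by 0.70, MCM2 by 0.60, MCM7 by 0.58 and MCM4 by 0.54. GINS3, with -0.28, had the smallest decrease of the list.

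At the fork, TYMS (thymidylate synthase, the source of dTMP) scored 1.88 and 1.83 and then 0.95, 0.94 and 0.91, and UHRF1, which carries DNA methylation through replication, fell by 0.83. PCNA, the sliding clamp, scored 2.02 and 1.99 and then 1.27, 1.30 and 1.32. The histone chaperone ASF1B fell by 0.70 and the fork protection factor TIMELESS by 0.62. Both subunits of ribonucleotide reductase were lower, RRM2 by 0.62 and RRM1 by 0.44. Smaller decreases were those of DNMT1, the maintenance DNA methyltransferase (0.35), and of DCK, a kinase of nucleoside salvage (0.22). In RNA of a whole culture, fewer cells in a phase of the cycle and less RNA per cell cannot be told apart.

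The promoters of 3 of these genes are shown, because E2F sites were more frequent in this list than among all genes. The capitals mark E2F sites on either strand, and in DTL also the CCAAT box. The MCM6 stretch holds a CCAAT box too, on the other strand (attgg), which is left in lower case. Each stretch reads 5′ to 3′ on the strand of the gene (GRCh38.p14, RefSeq). The GINS2 stretch is chr16:85688963-85689000 (- strand), with the site 31 bases before the start. The DTL stretch is chr1:212035702-212035762 (+ strand), with the site 8 bases before the start. The MCM6 stretch is chr2:135876507-135876610 (- strand) and holds 4 matches, in 2 pairs of overlapping sites on opposite strands.
GINS2: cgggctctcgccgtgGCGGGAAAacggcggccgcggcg
DTL: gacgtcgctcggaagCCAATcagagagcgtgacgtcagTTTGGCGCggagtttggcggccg
MCM6: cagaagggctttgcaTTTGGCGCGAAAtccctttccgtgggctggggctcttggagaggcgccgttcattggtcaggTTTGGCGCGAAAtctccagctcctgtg
An E2F site (TTTCCCGC, TTTCGCGC, TTTGCCGC or TTTGGCGC on either strand) was found in 11 of the 15 licensing promoters that could be read (73.3%) and in 7 of 14 fork and nucleotide promoters (50.0%), against 4.50% of measured genes. A match of letters does not show that a factor binds there.

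The switch genes of G1 followed the replication genes in part. Of 20 members of the list of G1 cyclins, inhibitors, E2F and pocket proteins, 15 were lower and 3 higher, with a median of -0.23. CCNE2, the cyclin that drives CDK2 at the start of S phase, scored 1.48 and 1.45 at 0.5 h and 0.60, 0.66 and 0.71 at 48 h. E2F8 fell by 0.68, E2F1 by 0.49 and E2F2 by 0.30, and the pocket proteins RBL1 (p107) and RB1 by 0.58 and 0.35. RBL2 (p130), the pocket protein of resting cells, rose from 1.54 and 1.55 to 1.80, 1.74 and 1.78. CDK2 fell by 0.39 and CDK4 by 0.17. CCND1, the D-type cyclin, had a difference of 0.12 that was called, but not without the 0.5 h array of replicate 1 (0.11, adjusted p = 0.094) or of replicate 3 (0.13, adjusted p = 0.055), or the 48 h array of replicate 1 (0.096, adjusted p = 0.063).

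Mitotic genes had the lowest medians of all lists. Of 31 mitotic kinases, cyclins and regulators of the anaphase-promoting complex, 29 were lower and 1 higher, with a median of -0.64. All 38 kinetochore, centromere and spindle genes were lower, with a median of -0.71. PLK1, the kinase of mitotic entry and spindle assembly, scored 2.46 in both arrays at 0.5 h and 1.48, 1.57 and 1.47 at 48 h, a difference of -0.95 ± 0.035 (adjusted p = 5.9e-13). CCNA2, the cyclin of S phase and G2, scored 2.50 and 2.46 and then 1.56, 1.60 and 1.58. MYBL2 (B-MYB), which activates the late cycle genes with MuvB, scored 2.29 and 2.27 and then 1.33, 1.42 and 1.33, and FOXM1, its partner in this task, fell by 0.43. The kinase PBK fell by 0.90, the checkpoint kinase BUB1 by 0.87, AURKB by 0.86, CCNB1 by 0.79, CDK1 by 0.77 and CCNB2 by 0.68.

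The exception was CDC25B, a phosphatase that activates CDK1, with 1.76 and 1.82 at 0.5 h and 2.08, 2.03 and 2.05 at 48 h. It rose by 0.26 ± 0.031 (adjusted p = 2.9e-06) while CDC25C fell by 0.60 and CDC25A by 0.50. FZR1, the activator of the anaphase-promoting complex in G1, was the member not called (-0.08).

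Within the kinetochore and spindle list, CDCA8 of the passenger complex scored 1.80 and 1.85 and then 0.86, 0.99 and 0.93. CENPI of the inner kinetochore fell by 0.89, HMMR of the spindle by 0.89, SKA3 of the outer kinetochore by 0.88 and KNL1, its scaffold, by 0.87. All 11 kinesin members of the list were lower, from KIF11 (-0.86), KIF14 (-0.85) and KIF20A (-0.84) to KIF18A (-0.22). The smallest decreases of the list were those of KIF18A and SKA2 (-0.24).

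Of 16 chromosome structure genes, 12 were lower and none higher. TOP2A, the topoisomerase that untangles sister chromatids, fell by 0.85, LMNB1 of the nuclear lamina by 0.75, SMC2 of condensin by 0.71 and ESCO2, which acetylates cohesin, by 0.64. Of the cohesin subunits, SMC1A fell by 0.33 and SMC3 by 0.23, and RAD21 (-0.08) and STAG2 (0.06) were not called.

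The promoters of PLK1, CCNB2 and BUB1 are printed because they hold both elements tied to late cycle genes, the cell cycle homology region (CHR, TTTGAA or TTCGAA), which MuvB binds, and the CCAAT box, which NF-Y binds. Capitals mark both, on either strand, in GRCh38.p14 from RefSeq. The PLK1 stretch is chr16:23678801-23678880 (+ strand), the CCNB2 stretch chr15:59104896-59105137 (+ strand) and the BUB1 stretch chr2:110678042-110678157 (- strand). In both PLK1 and CCNB2 the CHR begins 29 bases before the start of the gene, and the nearest CCAAT box begins 73 and 54 bases before it.
PLK1: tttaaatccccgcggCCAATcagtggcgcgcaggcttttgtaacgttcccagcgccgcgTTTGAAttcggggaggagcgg
CCNB2: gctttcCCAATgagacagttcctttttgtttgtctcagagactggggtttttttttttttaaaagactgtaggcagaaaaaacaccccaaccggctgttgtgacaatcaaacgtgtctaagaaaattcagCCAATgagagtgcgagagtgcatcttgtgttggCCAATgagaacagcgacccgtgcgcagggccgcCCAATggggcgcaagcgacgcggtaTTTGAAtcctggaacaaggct
BUB1: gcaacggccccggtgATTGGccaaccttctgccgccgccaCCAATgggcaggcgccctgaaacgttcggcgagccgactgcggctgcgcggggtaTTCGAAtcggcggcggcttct
A CHR was found in 26 of 33 kinetochore and spindle promoters (78.8%) and in 14 of 26 promoters of mitotic kinases and cyclins (53.8%), against 13.2% of measured genes. A CCAAT box was found in 81.8% and 65.4% of the same promoters, against 36.0% of measured genes. The licensing list held a CCAAT box in 66.7% of promoters, so that this element is not particular to the mitotic lists.

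**Figure D3:**
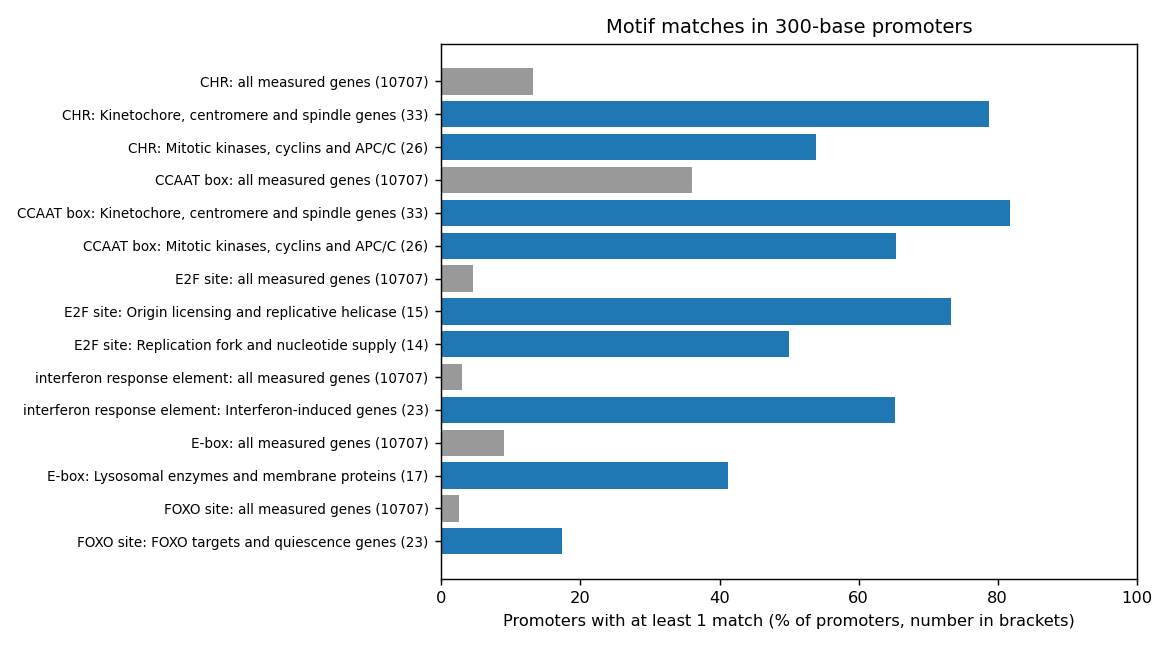
Share of promoters with at least 1 match of a motif (horizontal axis, %), in grey for all measured genes and in blue for the gene lists, with the number of promoters in brackets. The CHR stands at 78.8% of kinetochore and spindle promoters against 13.2%, the E2F site at 73.3% of licensing promoters against 4.50% and the interferon response element at 65.2% of interferon-induced promoters against 2.93%.

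Repair genes of homologous recombination and the Fanconi pathway were lower in 15 of 16 cases, with a median of -0.48. EXO1, which resects DNA ends, scored 1.44 in both early arrays and 0.64, 0.65 and 0.65 late, a difference of -0.80 ± 0.029 (adjusted p = 5.8e-13). RAD54L, a motor of strand exchange, fell by 0.69, RAD51AP1 by 0.66, UBE2T, the Fanconi ubiquitin-conjugating enzyme, by 0.63 and XRCC2 by 0.59. The kinase ATR (-0.04) was not called. Mismatch, excision and end-joining genes moved less, with 9 of 15 lower, none higher and a median of -0.10. UNG, which removes uracil from DNA, fell by 0.47, PARP2 by 0.31 and MSH6 by 0.27.

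The levels between the ends are given for a replication and a mitotic list as a description. Relative to 0.5 h, the median of the licensing list was -0.06 at 12 h, -0.35 at 18 h and -0.35 at 24 h, and it ended at -0.61. The kinetochore and spindle list stood at 0.00 at 12 h, -0.24 at 18 h and -0.16 at 24 h, and ended at -0.71. By this measure 57.9% of the final decrease of the licensing list and 23.2% of that of the kinetochore list was present at 24 h. CCNE2 stood at 1.38 at 12 h, 0.91 at 24 h and 0.66 at 48 h. PLK1 stood at 2.50 at 12 h, 2.36 at 24 h and 1.51 at 48 h. No test was made of this difference in timing, since both measures share the arrays at 0.5 h.

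**Figure D4:**
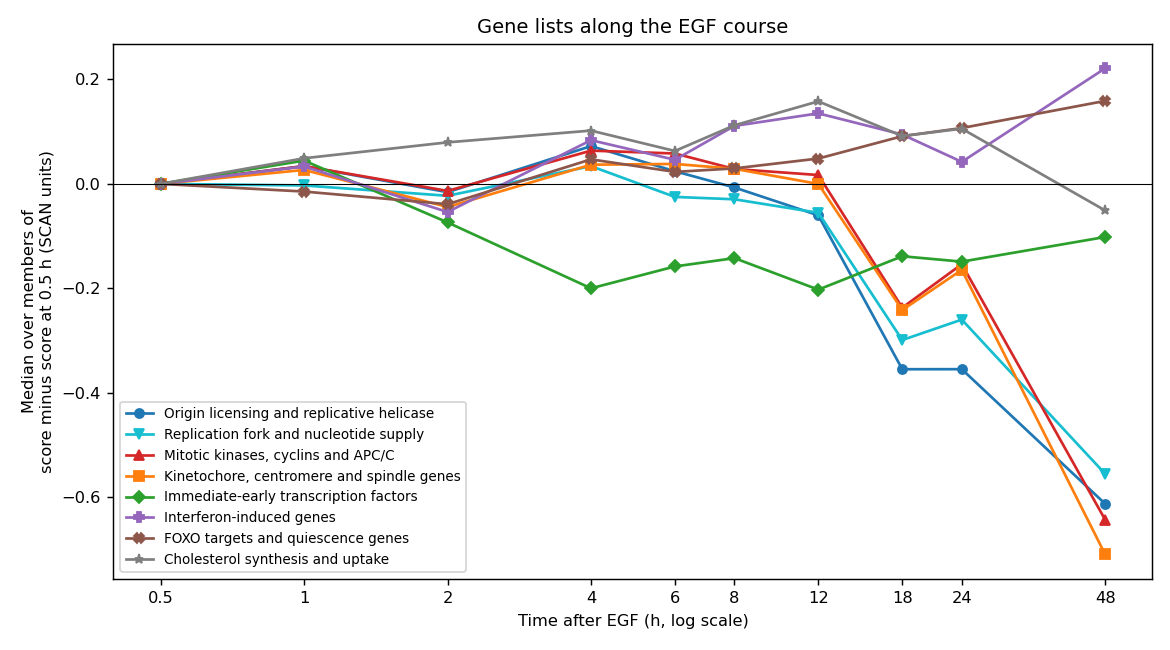
Median over the members of 8 gene lists of the score minus the score at 0.5 h (vertical axis, SCAN units) against time after EGF (horizontal axis, h, log scale), with single arrays from 1 to 18 h and means of replicates at 0.5, 24 and 48 h. The licensing list reaches -0.35 at 24 h and -0.61 at 48 h, the kinetochore list -0.16 and -0.71, and the interferon list ends at 0.22.

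Genes of the nucleus and of RNA handling were lower to a smaller degree. Of 40 nuclear pore and transport genes, 28 were lower and none higher, with a median of -0.16. RANBP1, a cofactor of the transport GTPase RAN, scored 1.39 and 1.34 and then 0.88, 0.90 and 0.93, and its other probe set gave -0.24. The nucleoporins NUP205, NUP210 and NUP155 fell by 0.33, 0.32 and 0.29, and CSE1L, the export receptor of importin alpha, by 0.29. Of 35 splicing factors and hnRNPs, 18 were lower and none higher, led by SNRPD1 (-0.33), HNRNPA1 (-0.28) and HNRNPL (-0.24).

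Of 26 ribosome biogenesis genes, 11 were lower and none higher, and 7 were lower without the 0.5 h array of replicate 3. RRS1, an assembly factor of the large subunit, scored 1.82 and 1.79 and then 1.46, 1.56 and 1.61, NCL (nucleolin) fell by 0.25 and the methyltransferase FBL by 0.21. Among 30 cytosolic ribosomal protein genes, 14 were lower and none higher, and 8 were lower without that array. RPL29 moved by -0.24, RPL32 by -0.19 and RPL11 by -0.18. Ribosomal protein genes have many near-identical pseudogenes, and whether their probe sets read these was not tested. Of 73 mitochondrial ribosomal protein genes, 24 were lower and 2 higher, and the lower ones numbered 14 without the 0.5 h array of replicate 1 and 13 without that of replicate 3. MRPL58 scored 2.07 and 2.06 and then 1.85, 1.80 and 1.79, while MRPS25 (0.24) and MRPL14 (0.21) were the 2 that rose. Translation factors had 4 of 14 lower and 1 higher, and none of the 5 was called with every array left out in turn.

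The aminoacyl-tRNA synthetases, which charge tRNA with amino acids, went in both directions. Of 17 measured members, 7 were higher and 3 lower. MARS1, for methionine, scored 1.68 and 1.66 and then 1.96, 1.94 and 1.92, WARS1, for tryptophan, rose by 0.23, AARS1 by 0.19 and YARS1 by 0.19. VARS1, for valine, fell by 0.18 and KARS1, for lysine, by 0.16. Their median difference of 0.028 turned to -0.0066 after quantile normalisation. The targets of ATF4, the factor of the amino acid response, were called higher in 4 of 15 cases and lower in 2. DDIT4, an inhibitor of mTORC1, scored 0.67 and 0.72 and then 1.02, 1.03 and 1.00, and TRIB3 (0.14) and ASNS (0.17), the asparagine synthetase, were also higher. PHGDH, the entry enzyme of serine synthesis, fell by 0.20. Both lists had higher medians at 24 h than at 48 h, 0.11 against 0.04 for the ATF4 targets and 0.10 against 0.03 for the synthetases.

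Lipid genes did not share a direction. Of 17 cholesterol genes, 5 were lower and 3 higher, and these counts were 4 and 1 without the 0.5 h array of replicate 1, and 3 and 2 without that of replicate 3. ACAT2, acetoacetyl-CoA thiolase of the cytosol, fell by 0.28. INSIG1, the sterol sensor that holds SREBP in the endoplasmic reticulum, scored 2.70 and 2.71 at 0.5 h and 2.49, 2.50 and 2.49 at 48 h, and it had stood between 2.73 and 2.85 at every time from 1 h to 24 h. SREBF2, the gene of the sterol factor itself, rose by 0.21. The list median was 0.11 at 24 h and -0.05 at 48 h, relative to 0.5 h. Among fatty acid genes, 6 of 21 were higher and 4 lower, with ACSL1 (0.26) and ACSL5 (0.24), which activate fatty acids, on one side and the elongases ELOVL6 (-0.19) and ELOVL5 (-0.17) on the other. SCD, the stearoyl-CoA desaturase, differed by 0.34, and by 0.20 after quantile normalisation.

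In glycolysis, 2 of 8 members were higher and 3 lower, with 1 lower when any of the 0.5 h arrays or the 48 h array of replicate 2 was left out. LDHA, lactate dehydrogenase, rose by 0.20 and HK2, the inducible hexokinase, fell by 0.19. In the respiratory chain 4 of 15 subunits were lower, or 2 without the 0.5 h array of replicate 3, and CYC1 (cytochrome c1) moved most among those that stayed called, by -0.23. In the citric acid cycle 1 of 11 members was called, and none without the 0.5 h array of replicate 3 or the 48 h array of replicate 1 or 3. Of 13 hypoxia-inducible genes, 4 were higher (VEGFA, ERO1A, NDRG1 and BNIP3) and 2 lower, among them the carbonic anhydrase CA12, which fell by 0.36. The other, KDM3A (-0.09), a histone demethylase, lost its call when any 1 of the 5 arrays was left out.

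FOXO targets and genes of quiescence were mostly higher at 48 h. Of 25 members, 14 were higher, against 15.5% of all genes, and 1 was lower, with a median of 0.16. TXNIP, a target of FOXO and of the glucose sensor MondoA, scored 1.87 and 1.84 at 0.5 h and 2.74, 2.68 and 2.70 at 48 h, a difference of 0.85 ± 0.031 (adjusted p = 4.7e-13). Its relative ARRDC4 scored 0.60 in both early arrays and 1.13, 1.14 and 1.15 late. YPEL3, a zinc-binding protein of growth arrest, rose by 0.43 from uneven early scores of 0.71 and 0.86, and PIK3IP1, an inhibitor of PI3 kinase, by 0.34. The cyclin-like CCNG2 rose by 0.26 and the repressor BCL6 by 0.27. The lower member, FOXO3, was called at -0.13 but has a second probe set with 0.09, and it was not called when the probe sets were averaged or without the 0.5 h array of replicate 3. A FOXO site (GTAAACA) lay in 4 of 23 promoters (17.4%), against 2.59% of measured genes.

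Of 26 lysosomal genes, 14 were higher and 2 lower, or 10 and none without the 0.5 h array of replicate 1. CTSC, a cathepsin that activates serine proteases, scored 2.03 and 2.05 and then 2.43, 2.39 and 2.42, a difference of 0.37 ± 0.029 (adjusted p = 1.4e-08). The sulfatases ARSA and SGSH rose by 0.25 and 0.24, the peptidase TPP1 by 0.24 and CTSH by 0.20. An E-box (CACGTG) lay in 7 of 17 lysosomal promoters (41.2%), against 9.04% of measured genes. Of 26 autophagy genes, 10 were higher and none lower, and this became 4 without the 0.5 h array of replicate 1 and 6 without the 48 h array of replicate 3. GABARAPL2, an ATG8 protein of the autophagosome, rose by 0.22, and TFE3, a transcription factor of lysosomal genes, by 0.16.

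Interferon-induced genes were the list most often higher. Of 29 measured members, 23 were higher and 1 lower, with a median of 0.22. IFI44L scored 1.62 and 1.60 at 0.5 h and 2.26, 2.35 and 2.29 at 48 h, a difference of 0.69 ± 0.037 (adjusted p = 7.4e-11). SAMD9L, a restriction factor that inhibits translation, scored 0.92 and 0.89 and then 1.55, 1.60 and 1.57, and XAF1, a promoter of cell death, 1.39 and 1.33 and then 1.95, 2.03 and 1.94. The membrane protein IFITM1 rose by 0.49, though the IFITM genes are close relatives and their probe sets may not tell them apart. BST2 (tetherin) rose by 0.48, and the transcription factors IRF7 and IRF9 by 0.44 and 0.41. The lower member, OASL (-0.13, adjusted p = 0.0022), did not pass the noise rule of the study, which sets a difference against the scatter of replicates at a similar level. IFIT3 (-0.07), USP18 (0.02) and IRF1 (-0.02) were not called.

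The level of this list was uneven in time, with a median relative to 0.5 h of 0.135 at 12 h, 0.04 at 24 h and 0.22 at 48 h. IFI44L stood at 1.51 at 1 h, 2.10 at 12 h, 1.99 at 24 h and 2.30 at 48 h. The promoter of IFI44L is shown for its 2 interferon response elements (GAAANNGAAA), in capitals, which begin 164 and 73 bases before the start and lie in a repeated stretch (chr1:78620269-78620399, GRCh38.p14, + strand, RefSeq).
IFI44L: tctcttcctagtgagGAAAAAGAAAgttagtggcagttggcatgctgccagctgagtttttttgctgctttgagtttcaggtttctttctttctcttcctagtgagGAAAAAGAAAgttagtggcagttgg
This element lay in 15 of 23 promoters of the list (65.2%), against 2.93% of measured genes.

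In antigen presentation, 4 of 10 members were higher and 1 lower. Among the higher ones, B2M (0.13) was not called without the 48 h array of replicate 2 or 3 or after quantile normalisation. It was also not called without the 0.5 h array of replicate 3, where its difference was 0.07. TAPBP (tapasin), which loads peptides onto class I molecules, scored 1.55 and 1.51 and then 1.94, 1.89 and 1.87. The NKG2D ligands ULBP1 and ULBP3 rose by 0.45 and 0.32, and another ligand, MICB, fell by 0.15, where its close relative MICA may contribute to the signal. The complement genes were divided, with C5 (-0.46) and CFI (-0.38) lower and CFB (0.32) higher.

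Of 17 members of the alveolar type 2 and lung lineage list, 10 were higher and 2 lower, with a median of 0.12. SFTPA1, surfactant protein A, scored 0.21 and 0.28 and then 0.88, 0.82 and 1.03, a difference of 0.66 ± 0.050 (adjusted p = 1.1e-08), although its probe set may also read the near-identical SFTPA2. HOPX, a homeodomain protein of alveolar cells, scored 0.21 and 0.15 and then 0.71, 0.73 and 0.74. NKX2-1, the lineage factor, rose by 0.20, from 1.39 and 1.44 to 1.60, 1.62 and 1.61. SFTPB rose by 0.18 to a mean of 0.31. SFTPC, the most specific marker of type 2 cells, had means of 0.06 and 0.12 and was not called, and SFTPD stood at -0.03 and -0.01, so that these markers stayed in the lower part of the range of all genes, whose median was 0.426. FOXA2 and ETV5, both transcription factors of lung epithelium, each fell by 0.19.

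Secretory and mucosal genes had 8 of 20 members higher and none lower. Beside CXCL17, PAEP and CEACAM6, CEACAM5 rose from 0.13 in both early arrays to 0.64, 0.67 and 0.63, and VSIG1, a junctional protein of gastric-type epithelium, by 0.45. CEACAM5 and CEACAM6 are close relatives, and whether their probe sets tell them apart was not tested. The antimicrobial genes LCN2 (-0.10), S100A8 (-0.04) and LTF (-0.01) were not called.

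Of 33 members of the list of tight, adherens and desmosomal junctions, 20 were higher and none lower, with a median of 0.14. The list also holds the epithelial regulators ESRP1, ESRP2, GRHL1, GRHL2 and OVOL1. Of these, ESRP2, GRHL1 and OVOL1 were among the members called higher. CLDN1, a barrier claudin, scored 0.78 and 0.85 and then 1.49, 1.42 and 1.31, a difference of 0.59 ± 0.050 (adjusted p = 4.6e-08). ESRP2, a splicing factor of epithelial cells, rose by 0.37, PPL and DSP, plakin proteins that tie desmosomes to keratin, by 0.36 each, and CLDN3 by 0.35. The desmosomal cadherins DSC2 and DSG2 rose by 0.33 and 0.32. The keratins themselves were 2 higher and 2 lower of 14, or 1 and 1 without the 0.5 h array of replicate 1 or the 48 h array of replicate 2 or 3, with KRT10 (0.18) and KRT7 (-0.17) called with every array left out in turn.

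Of 21 mesenchymal and migration genes, 9 were higher and 2 lower. SNAI2 (Slug), a repressor of epithelial genes, scored 1.76 and 1.83 and then 1.40, 1.36 and 1.42, and fell by 0.40. MMP13, a collagenase, rose from 1.52 and 1.54 to 2.03, 1.98 and 2.09, a difference of 0.51 ± 0.037 (adjusted p = 5.8e-09). TIMP1, an inhibitor of such proteases, rose by 0.27, LOX, which crosslinks collagen, by 0.22 and TNC (tenascin) by 0.19. ZEB1 (0.03), ZEB2 (-0.02) and FN1 (-0.04) were not called. Of 3 basement membrane genes measured, AGRN (agrin) rose by 0.29 and HSPG2 (perlecan) fell by 0.16.

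Apoptosis genes moved both ways. Of 17 BCL2 family genes, caspases and inhibitors, 6 were higher and 5 lower, or 4 and 2 without the 0.5 h array of replicate 1. BOK, a pore-forming member, scored 0.96 and 0.99 and then 1.40, 1.36 and 1.40, CFLAR, which blocks caspase-8, rose by 0.28 and BIRC2 by 0.18, while the survival protein MCL1 fell by 0.18. The p53 targets had 2 of 14 higher (14.3%, against 15.5% of all genes) and 4 lower (28.6%, against 13.1%). TP53INP1 (0.33) and PLK2 (-0.31) moved most. Clock genes were 3 higher and 1 lower of 12, and without the 0.5 h array of replicate 3 they were 1 and 1. CRY1, a repressor of the clock, fell by 0.16.

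Metallothioneins, which bind zinc and copper, were lower in 5 of 8 cases and higher in none. Of the lower ones, MT1E (-0.12) was not called without the 48 h array of replicate 2 or under the noise rule of the study. Without the 0.5 h array of replicate 1 it was not called either, with a difference of -0.08. MT1X scored 1.28 and 1.31 and then 0.51, 0.59 and 0.46, a difference of -0.77 ± 0.043 (adjusted p = 1.0e-10), and MT1F and MT2A fell by 0.46 and 0.41. These genes are so alike that 1 transcript may reach several probe sets. Of 8 chaperones measured, 3 were higher, among them HSPA1A (0.34, between 0.34 and 0.36 in each of its 5 probe sets) and HSPH1 (0.31), and 2 more were called lower without the 48 h array of replicate 3. Of 22 NRF2 and glutathione genes, 5 were higher and 5 lower, or 3 and 3 without the 0.5 h array of replicate 1, and GSTA4 (0.32), MGST1 (0.21) and GPX3 (-0.23) moved most. In the endoplasmic reticulum, SEL1L of the degradation pathway was the 1 called gene of 11 (0.16), and 1 more was called lower without the 48 h array of replicate 1.

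Families defined by the root of the gene symbol were counted without reference to a pathway. Of 100 roots with 15 or more measured genes (5454 genes in all), the lowest median was that of NUP, the nucleoporins, with 19 of 24 lower and a median of -0.17. CEP, the centrosomal proteins, had 16 of 38 lower and 2 higher. KIF, the kinesins, had 14 of 39 lower and 4 higher. On the other side, VPS, the vacuolar sorting proteins, had 14 of 34 higher and none lower, with a median of 0.06. VPS26B of the retromer, which recycles receptors, rose by 0.25 and VPS39 of the HOPS tether by 0.25. TSPAN, the tetraspanins, had 7 of 22 higher and none lower, with TSPAN12 (0.41) first. ZNF genes, the largest protein family, had 114 of 476 higher and 50 lower, where the shares over all genes were 15.5% and 13.1%. Families that are near background on these arrays gave few calls, with 3 of 84 for KRTAP, the hair keratin-associated proteins.

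Genes with the symbol root MIR had 70 higher and 69 lower of 949, below the shares over all genes (15.5% and 13.1%). MIR554 had the largest difference among the MIR genes. It lies outside the ranking above, which left out small RNAs, and is named for its size. Its mean score was 1.25 at 0.5 h (1.18 and 1.33), 0.81 at 1 h, 0.06 at 2 h and 0.26 at 48 h (0.24 to 0.28), with a difference of -0.99 ± 0.038. The mature sequence (RefSeq, chr1:151545811-151545831, GRCh38.p14, + strand) is shown with its seed, bases 2 to 8, in capitals.
hsa-miR-554: gCUAGUCCugacucagccagu
Whether the probe set reads the mature RNA, its precursor or a longer transcript of the locus was not tested.

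**Figure D5:**
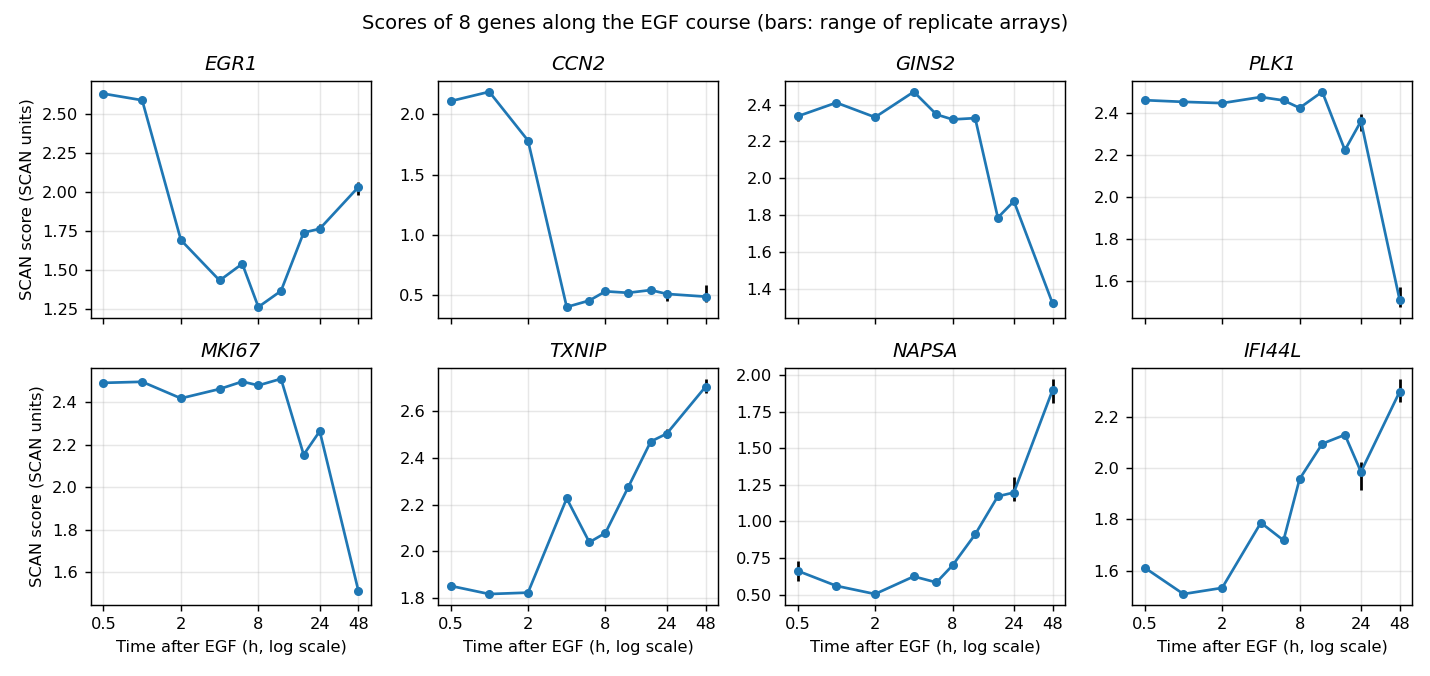
SCAN score (vertical axis, SCAN units) of 8 genes against time after EGF (horizontal axis, h, log scale), as means with bars for the range of replicate arrays at 0.5, 24 and 48 h and single arrays at the other times. EGR1 is lowest at 8 h (1.26), CCN2 falls to 0.40 by 4 h, PLK1 and MKI67 hold until 12 h, and NAPSA climbs from 0.66 to 1.90.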

How the data were processed

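Per the labels, RNA of H1975 cells was hybridised to Affymetrix Human Gene arrays. The authors deposited a SCAN score per probe set, computed array by array with Single Channel Array Normalisation, and left out arrays they judged outliers. They mapped probes to genes with the Netaffx annotation of the manufacturer. The SCAN version is not stated in the sources used. Of 39937 probe sets, 15426 carry 1 gene symbol and 24511 none. The probe set with the highest mean was kept for 534 repeated symbols, which left 14675 genes. No filter or further normalisation was applied. Time was fitted as a 10-level factor over all 15 arrays (5 residual degrees of freedom) with limma 3.58.1 in R 4.3.3. Gene variances were moderated with a prior of 12.43 degrees of freedom, and the two-sided p-values were adjusted over all genes. The fit was tested on simulated data. The 52 lists (1565 genes, 924 measured; no proteasome subunit was measured under a name here) were drawn up, like the comparison, with earlier results of these data known. Named are the 10 highest and 10 lowest calls without small RNA, uncharacterised and olfactory receptor genes, up to 5 members of a list by size, up to 2 called against its direction, and EGFR, EGR1, FOS, MYC, MKI67, CCN2 and TXNIP. Other genes were added with their values known, to complete a complex or family. Promoters came from RefSeq (GRCh38.p14), 10707 of measured genes, and motifs were searched on both strands. Alternatives concerned the arrays fitted, scaling, filter, probe sets, variance prior, replicate number and the noise rule of the study (a difference over 2 times the 0.95 quantile of replicate SDs among genes of similar mean).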

Additional observations from a re-analysis of the deposited data

How the results depend on the processing

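The count of 4199 called genes stayed between 4173 and 4346 with the 5 arrays alone, quantile normalisation, median centring, averaged probe sets or a trended and robust variance prior. A filter that kept the genes above the median mean gave 3871. Fewer genes were tested there, so the share called was larger than the 28.6% of the main fit. Under the noise rule of the study the count was 2302, with 1284 higher and 1018 lower, and over all probe sets, named or not, it was 6806, with 3753 higher and 3053 lower, since more features were tested. Leaving out 1 array gave 2964 to 4271 called genes and 444 to 532 called list members, and the lowest counts were those without a 0.5 h array, which leave 1 array at that time, assumed to vary like the other groups. With the replicate number as a block the count was 3906. The deviations of arrays with the same number correlated at -0.030 to 0.030, and those of arrays with different numbers at -0.045 to 0.045. Between 24 h and 48 h the same-number values were 0.010, 0.028 and 0.030, and the different-number values -0.024 to -0.003. The 2 arrays at 0.5 h deviate by equal and opposite amounts, so whether the numbers pair the arrays cannot be told. The block is therefore no check of the effect. Of 249 called genes named by the rule, 41 were not called without some array, and none changed direction under the 16 settings run on them. Under the noise rule, 36 of these named genes were not called. The number of called members changed by a factor over 1.5 in 18 of 51 lists under that rule. It did so in 8 lists with the filter on the mean. The precision is limited by the 2 arrays at 0.5 h and 5 residual degrees of freedom. The standard errors rest more on the 12.43 prior degrees of freedom, which are shared across genes. Genes near the lower quartile of scores may lie at background, where these data cannot show a difference.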
